A study of Mus musculus with 3 samples.

Results

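The PI3K-mTOR and Ras-ERK cascades are kinase relays that carry growth factor, nutrient and synaptic signals to protein synthesis and transcription. The set described here holds 44 named genes of those cascades out of 32531 gene symbols in the count tables, taken by symbol from a list drawn up with earlier results of these data known but with no threshold on a measured value, and a row was found for each of the 44. The data were 3 libraries of ribosome-bound RNA from the prefrontal cortex of adult, untreated Slc17a6-TRAP JX883 mice. TRAP stands for translating ribosome affinity purification, and in this transgenic line the ribosomal protein L10a with an EGFP tag is made under control of Slc17a6, the gene of the vesicular glutamate transporter VGLUT2. Polysomes that carried the tag were pulled down with antibodies to EGFP, and each library pooled 3 mice. All 3 libraries belonged to the same group. Input RNA or another group was not analysed here, and each value is therefore a level in the pulled-down RNA, not an enrichment. In such a preparation, fewer cells of a type and less RNA per cell cannot be told apart.

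In the PI3K arm, an activated receptor recruits a lipid kinase made of a catalytic and a regulatory subunit, its lipid product brings PDK1 and Akt to the membrane, and Akt releases the small GTPase Rheb from the TSC complex so that it can switch on mTOR complex 1. AMPK, its upstream kinase LKB1, the sestrins and REDD1 slow the same complex when energy or amino acids are short. In the Ras arm, exchange factors load Ras with GTP, neurofibromin returns it to the GDP state, and Ras-GTP starts the Raf, MEK and ERK relay that ends at the RSK and MSK kinases. In cortical neurons both arms are known for their part in synaptic plasticity and in local protein synthesis.

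The libraries held 12592174, 8964137 and 12648577 counts on named genes in replicates 1, 2 and 3. All 44 genes reached 1 CPM (counts scaled to a common library total) or more in every library, against 67.0% of the 18377 symbols with a count in any library. Levels between genes are given in TPM, which also takes account of transcript length, computed from the deposited counts and the merged exon length of each gene. The median level of the 44 genes was 47.2 TPM, with library medians of 45.7, 48.3 and 46.1 TPM, and the median of all 11595 genes at 1 CPM or more that had a gene model was 26.8 TPM. By mean level, 34 of the 44 genes stood above that median, and the middle gene of the set lay at percentile 65.2. The 18 Ras-ERK genes had a median of 78.1 TPM, with 14 above the median of all genes. The 26 genes of the PI3K-mTOR-AMPK arm had a median of 36.8 TPM, with 20 above it. The lowest gene was Rps6kb2 at 3.88 ± 0.632 TPM (SD, n = 3, as for every mean below) and the highest was Map2k1 at 463 ± 31.01 TPM, which ranked 301 of 11595.

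**Figure D1:**
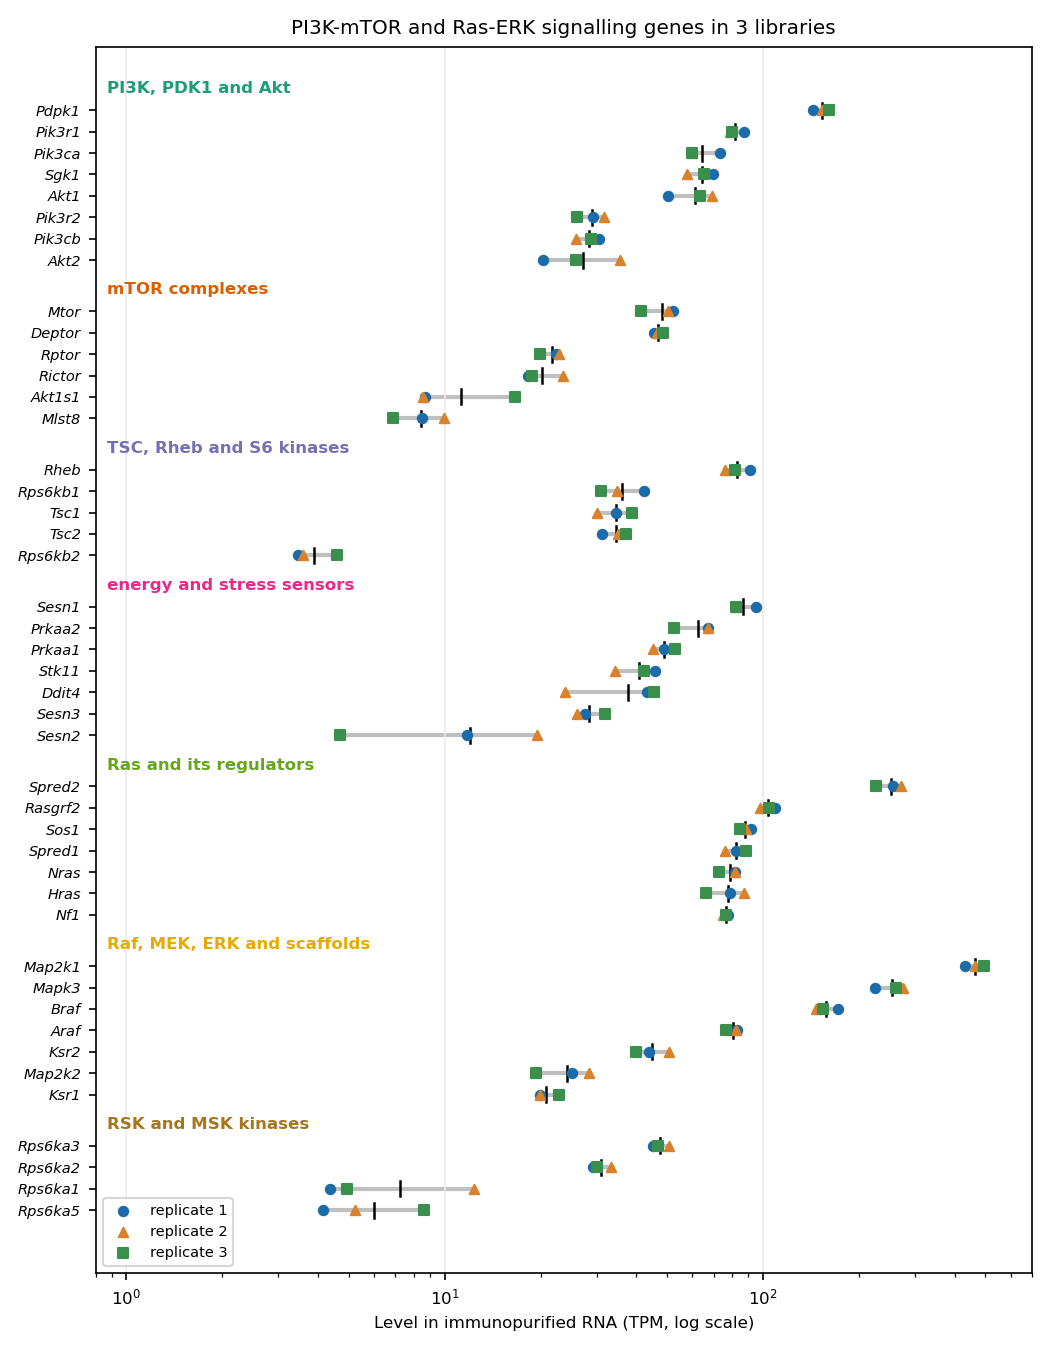
Level of each of the 44 genes in the 3 libraries, on a log axis in TPM, grouped by role and ordered by mean within a role; markers are libraries, the grey line is their range and the black tick their mean. Levels ran between 3.88 TPM for Rps6kb2 and 463 TPM for Map2k1, the 7 genes of Ras and its regulators all averaged 76.3 TPM or more, and the widest ranges belonged to Sesn2 and Rps6ka1.

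The 8 genes of the PI3K, PDK1 and Akt role, with the related kinase gene Sgk1 counted in, had a median of 62.6 TPM. All 8 exceeded the median of all genes, or 7 of 8 with the longest transcript of each gene as its length. Pdpk1 encodes PDK1, the kinase that phosphorylates the activation loop of Akt, SGK and the S6 kinases. It stood at 144, 154 and 161 TPM in replicates 1, 2 and 3 (the order used for all lists of 3 values), above every other gene of this role in every library. Pik3ca, the catalytic subunit p110 alpha (chr3:32397671-32468486, plus strand, mm10), was at 73.4, 59.7 and 59.7 TPM. Pik3cb, the catalytic subunit p110 beta, was at 30.6, 25.8 and 28.9 TPM. The ranges of these catalytic subunits did not overlap, and Pik3ca exceeded Pik3cb by 1.16 ± 0.11 on the log2 (TPM + 0.5) scale, or 2.24-fold, in 3 of 3 libraries.

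The regulatory subunits were ordered in the same way. Pik3r1, which gives rise to p85 alpha and its shorter forms, was at 86.9, 78.9 and 79.9 TPM, and Pik3r2, which encodes p85 beta, was at 29.2, 31.8 and 26.1 TPM. Pik3r1 exceeded Pik3r2 by 1.48 ± 0.16 log2 units (2.80-fold), again with all libraries on the same side. Akt1 (chr12:112653821-112674884, minus strand) was at 50.4, 69.2 and 63.4 TPM and Akt2 (chr7:27591552-27640826, plus strand) at 20.3, 35.6 and 25.8 TPM. Both were lowest in replicate 1 and highest in replicate 2, and Akt1 exceeded Akt2 by 1.17 ± 0.19 log2 units (2.25-fold), the same way in every library. In CPM, which takes no account of length, the ratio was 1.30-fold. Of the 50-base windows of the Akt2 transcript, 15.95% also occur in Akt2-ps, so the counts of Akt2 are uncertain. Sgk1, a kinase related to Akt that growth factors and glucocorticoids induce, was at 69.5, 57.9 and 65.1 TPM, a range that overlapped those of Pik3ca and Akt1. Pik3r2, Pik3cb and Akt2 also overlapped as neighbours in the order of levels.

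The genes of the mTOR complexes had a median of 20.95 TPM, below those of the PI3K, TSC and sensor roles, and 2 of 6 stood above the median of all genes, these being Mtor, the kinase shared by both complexes, and Deptor, an inhibitor bound to it. With the longest transcript as the length, the median was 30.6 TPM and 4 of 6 stood above that of all genes, Rptor and Rictor being added. Mtor (chr4:148448611-148557683, plus strand) was at 52.2, 50.3 and 41.5 TPM and Deptor at 45.4, 46.4 and 48.5 TPM, with overlapping ranges. Deptor was among the steadiest genes of the set, with a coefficient of variation (CV) of 3.17% in CPM. Rictor, the defining subunit of mTOR complex 2, was at 18.2, 23.6 and 18.8 TPM. Rptor, the substrate-recruiting subunit of mTOR complex 1, was at 22.3, 22.8 and 19.97 TPM, with a mean of 33.5 TPM by the longest transcript. These scaffolds differed by -0.11 ± 0.17 log2 units for Rictor minus Rptor, with Rictor lower in 2 of 3 libraries, so their order was not separated from the spread between libraries. Mlst8, a subunit of both complexes, was at 8.49, 9.97 and 6.88 TPM, and 22.5% of its exon length overlaps Bricd5. Akt1s1, which encodes PRAS40, an Akt substrate that inhibits mTOR complex 1, was at 8.64, 8.56 and 16.6 TPM, higher in replicate 3 than in the others.

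Around mTOR complex 1, Tsc1 and Tsc2 were level with each other and Rheb was above both. Tsc1, which encodes hamartin, was at 34.6, 30.1 and 38.8 TPM, and Tsc2, which encodes tuberin, the subunit that acts on Rheb, was at 31.1, 35.1 and 36.98 TPM. Tsc1 minus Tsc2 was -2.35e-05 ± 0.19 log2 units, and Tsc1 was the lower in 1 of 3 libraries. Tsc2 shares 7.20% of its exon length with Pkd1. Rheb, the activator of mTOR complex 1, was at 91.2, 75.8 and 81.7 TPM, above Tsc1 and Tsc2 in every library. The S6 kinases phosphorylate ribosomal protein S6. Rps6kb1 (chr11:86498871-86544805, minus strand) was at 42.4, 34.8 and 30.9 TPM and Rps6kb2 (chr19:4153991-4163354, minus strand) at 3.45, 3.57 and 4.60 TPM. Rps6kb1 exceeded Rps6kb2 by 3.06 ± 0.41 log2 units (8.34-fold) in 3 of 3 libraries, and by 6.62-fold when the exons that Rps6kb2 shares with other genes (23.7% of its length) were left out of the lengths. Rps6kb2 rested on 45, 33 and 60 counts.

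Of the 7 energy and stress sensors, 6 stood above the median of all genes, and their median was 40.8 TPM. Prkaa2 and Prkaa1 encode the alternative catalytic subunits of AMPK, alpha 2 and alpha 1. Prkaa2 was at 67.4, 67.00 and 52.5 TPM and Prkaa1 at 48.8, 45.1 and 52.9 TPM. Prkaa2 was higher in 2 of 3 libraries, with a difference of 0.34 ± 0.31 log2 units that was close to its SD. Stk11, which encodes LKB1, was at 45.9, 34.2 and 42.4 TPM. Ddit4, which encodes REDD1, an inhibitor of mTOR complex 1 induced by hypoxia and glucocorticoids, was at 43.3, 23.9 and 45.4 TPM, lower in replicate 2 than in the others.

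The sestrin genes spanned a wide range of levels. Sesn1 (chr10:41809935-41908424, plus strand) was at 95.2, 82.1 and 82.4 TPM, the highest sensor in every library. Sesn2 (chr4:132492032-132510501, minus strand), which encodes a leucine sensor, was at 11.7, 19.5 and 4.67 TPM and was the most variable of the 44 genes by range. Sesn3 was at 27.6, 25.95 and 31.97 TPM and varied little. Sesn1 exceeded Sesn2 by 3.01 ± 0.98 log2 units (8.03-fold) with each library in that direction, although the difference was smallest in replicate 2, at 2.05, and largest in replicate 3. Sesn3 minus Sesn1 was -1.59 ± 0.21 log2 units, and Sesn3 was the lower in 3 of 3 libraries. With the length of the longest transcript in place of merged exons that difference was -0.92 log2 units, as the merged exons of Sesn3 cover 15269 bases and its longest transcript 9125. In CPM, without length, the direction turned, to 0.33 log2 units.

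The Ras genes and their regulators had a median of 82.1 TPM, with all 7 above the median of all genes, and varied little between libraries, with a median CV of 6.55%. Hras and Nras encode small GTPases that switch on Raf. Hras (chr7:141189105-141194005, minus strand) was at 78.8, 87.4 and 66.3 TPM and Nras (chr3:103058285-103067914, plus strand) at 81.6, 81.5 and 72.8 TPM. Their ranges overlapped, and Hras minus Nras was -0.03 ± 0.12 log2 units, with Hras lower in 2 of 3 libraries. The coding sequences of this pair, of 570 bases each with the stop codon, are 75.1% identical base for base, and no 50-base window is shared between them, so a read of that length falls in 1 of them only. The stretches below, read from GENCODE M21 transcripts on mm10, show the end of each coding sequence, where the pair differs in the encoded protein, with capitals at the bases that differ. They are coding bases 511 to 570, at chr7:141191348-141191407 on the minus strand for Hras and chr3:103063390-103063449 on the plus strand for Nras.
Hras, end: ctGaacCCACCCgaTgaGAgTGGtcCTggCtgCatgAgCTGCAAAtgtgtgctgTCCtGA
Nras, end: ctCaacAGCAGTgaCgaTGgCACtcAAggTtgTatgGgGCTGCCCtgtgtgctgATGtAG
Here 30 of 60 bases differ and 10 of 20 codons encode another residue. This end encodes the variable tail that anchors Ras to membranes.

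Among the exchange factors that load Ras, Sos1, which acts downstream of receptor tyrosine kinases, was at 91.4, 88.2 and 84.4 TPM. Rasgrf2, which calcium and calmodulin activate, was at 109, 98.2 and 105 TPM, above Sos1 in every library. Nf1, the gene of neurofibromin (chr11:79339693-79581612, plus strand), was at 77.3, 75.1 and 76.3 TPM and was the steadiest of the 44 genes, with a CV of 1.78% in CPM. The SPRED proteins bring neurofibromin to the membrane and so restrain Ras. Spred1 (chr2:117121374-117182279, plus strand) was at 82.3, 75.7 and 88.2 TPM, against 257, 271 and 227 TPM for Spred2 (chr11:19924375-20024026, plus strand). Spred1 minus Spred2 was -1.61 ± 0.24 log2 units, and Spred1 was the lower in 3 of 3 libraries.

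The Raf, MEK and ERK relay held 3 of the 5 highest genes of the set, and its genes were spread over a wide range. Braf, the Raf kinase with the highest basal activity, was at 172, 147 and 155 TPM and Araf at 82.8, 82.4 and 76.5 TPM, and Araf averaged 139 TPM by the longest transcript. Braf exceeded Araf by 0.96 ± 0.12 log2 units (1.95-fold) in 3 of 3 libraries, and by 0.28 log2 units, or 1.22-fold, with the longest transcript of each gene as its length. Mapk3, which encodes ERK1 (chr7:126759601-126765819, plus strand), was at 225, 275 and 261 TPM. KSR proteins hold Raf, MEK and ERK together. Ksr2 was at 43.98, 50.5 and 39.9 TPM and Ksr1 at 19.9, 19.9 and 22.9 TPM, a difference of 1.08 ± 0.27 log2 units in 3 of 3 libraries.

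The widest contrast lay between the kinases that phosphorylate ERK. Map2k1, which encodes MEK1 (chr9:64185770-64253631, minus strand), was at 432, 463 and 494 TPM, against 25.04, 28.5 and 19.3 TPM for Map2k2, which encodes MEK2 (chr10:81105915-81133975, plus strand). Map2k1 exceeded Map2k2 by 4.24 ± 0.35 log2 units (18.9-fold), and the ranges lay far apart. With the longest transcript as the length, Map2k2 averaged 43.1 TPM and the difference was 3.50 log2 units, or 11.3-fold. The pair is closely related in sequence, and a read that lies inside a shared run can be placed at both genes. The longest run shared by their coding sequences was 56 bases, shown here with 15 bases on either side and with capitals at the bases that differ. For Map2k1 these are coding bases 376 to 461 of 1182, which span intronic sequence within chr9:64205166-64212646 on the minus strand, and for Map2k2 coding bases 388 to 473 of 1206, within chr10:81115110-81118174 on the plus strand.
Map2k1: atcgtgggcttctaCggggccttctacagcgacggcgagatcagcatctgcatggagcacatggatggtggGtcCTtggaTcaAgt
Map2k2: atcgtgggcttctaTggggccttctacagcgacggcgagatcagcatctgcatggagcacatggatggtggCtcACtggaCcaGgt
Of the 86 bases 6 differ, and none of the 28 whole codons encodes another residue. Over the longest transcript, 0.293% of the 50-base windows of Map2k1 occur in Map2k2, and 0.297% of those of Map2k2 occur in Map2k1.

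The kinases at the end of the relay were the lowest role of the set, with a median of 19.0 TPM and 2 of 4 above the median of all genes. Rps6ka3, which encodes RSK2, was at 45.1, 50.8 and 46.8 TPM. Rps6ka2, which encodes RSK3, was at 29.2, 33.3 and 30.1 TPM, but 34.5% of the 50-base windows of its transcript occur in other annotated genes, mostly the non-coding AC166110.4. Rps6ka1, which encodes RSK1 (chr4:133847290-133887797, minus strand), was at 4.37, 12.4 and 4.93 TPM and was high in replicate 2 alone. Rps6ka2 exceeded Rps6ka1 by 2.17 ± 0.67 log2 units (4.49-fold). Rps6ka3 exceeded Rps6ka1 by 2.78 ± 0.68 log2 units (6.88-fold). Both contrasts held in 3 of 3 libraries and were smallest in replicate 2. Rps6ka5, which encodes MSK1, a nuclear kinase that phosphorylates CREB and histone H3, was at 4.15, 5.21 and 8.63 TPM, highest in replicate 3, and overlapped Rps6ka1. Its mean was 9.57 TPM by the longest transcript.

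Among the 16 contrasts, 12 kept 1 direction across the libraries and 11 exceeded 1 log2 unit in size. Each of these 12 had an exact two-sided sign-flip permutation p of 0.25, or 0.333 after Benjamini-Hochberg adjustment over the 16 contrasts. That p is the smallest that 3 libraries allow, so no contrast could pass 0.05. The exceptions were Rictor minus Rptor, Tsc1 minus Tsc2, Prkaa2 minus Prkaa1 and Hras minus Nras, with exact permutation p between 0.5 and 1. The SD of Prkaa2 minus Prkaa1 was close to its mean, and that of the other 3 was larger.

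**Figure D2:**
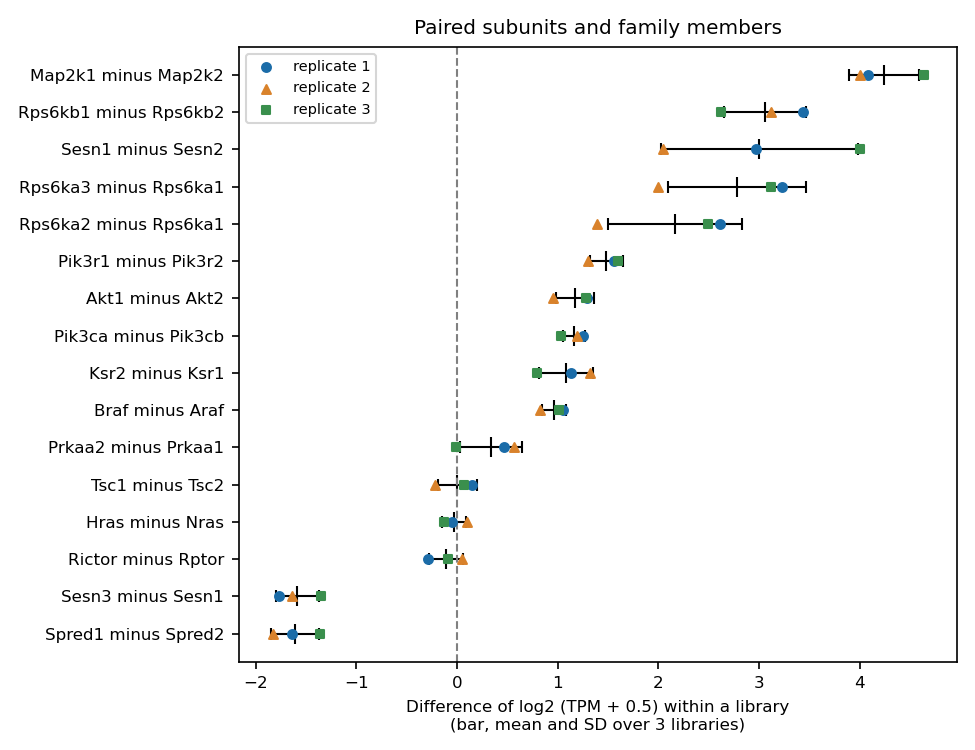
Difference of log2 (TPM + 0.5) between 2 genes within each library, first gene minus second; markers are the 3 libraries, and the tick with its bar is their mean and SD. The differences ran between 4.24 for Map2k1 minus Map2k2 and -1.61 for Spred1 minus Spred2, and for 12 of 16 contrasts all 3 libraries lay on the same side of 0.

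With a single group, the test across all genes asked whether a gene varied between libraries by more than genes of like abundance, by the deviance of a negative binomial model with no covariate in edgeR. Of 14774 genes tested 36 were called at an adjusted p of 0.05, or 0.244%, and 0 of the 44 signalling genes were. The limma variance test called 12 genes (0.0812%) and edgeR with the DESeq2 trended dispersion 28 genes (0.19%), again with 0 of the 44. At an unadjusted p under 0.05 edgeR gave 1 of the 44, or 2.27%, against 7.22% of all genes tested. That gene was Sesn2, at 8.18, 13.5 and 3.24 CPM, with an unadjusted p of 0.0135 and an adjusted p of 0.479 in edgeR, lowest in replicate 3 and highest in replicate 2. Its adjusted p lay between 0.105 and 0.99999 over the alternatives, and its unadjusted edgeR p was 0.0871 without replicate 2 and 0.215 without replicate 3. These p-values measure the spread between libraries of pooled mice only.

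The next most variable genes were also low in abundance. Rps6ka1 was at 3.73, 10.5 and 4.19 CPM, with an edgeR adjusted p of 0.810. Rps6ka5 was at 9.93, 12.4 and 20.6 CPM, with an edgeR adjusted p of 0.842. Akt2 was the exception, at 29.1, 50.6 and 36.8 CPM with an edgeR adjusted p of 0.787. Ddit4 was at 15.2, 8.37 and 15.9 CPM, lowest in replicate 2, and Akt1s1 at 5.32, 5.24 and 10.2 CPM, highest in replicate 3. None of these passed the test. At the other end, Nf1 was at 246, 237 and 241 CPM, Deptor at 80.8, 81.99 and 85.9 CPM and Sos1 at 194, 186 and 178 CPM.

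The set as a whole differed little between libraries. Its summed level was 4337, 4258 and 4212 CPM. Replicates 1, 2 and 3 held the highest value of 16, 15 and 13 genes and the lowest value of 13, 17 and 14 genes. The median CV of the 44 genes was 9.69%, against 19.3% for all genes tested, which include many low genes. Within the middle range of the set's abundance, 38.5 to 115 CPM, the median CV was 9.19% for 22 signalling genes and 11.1% for 2809 genes.

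**Figure D3:**
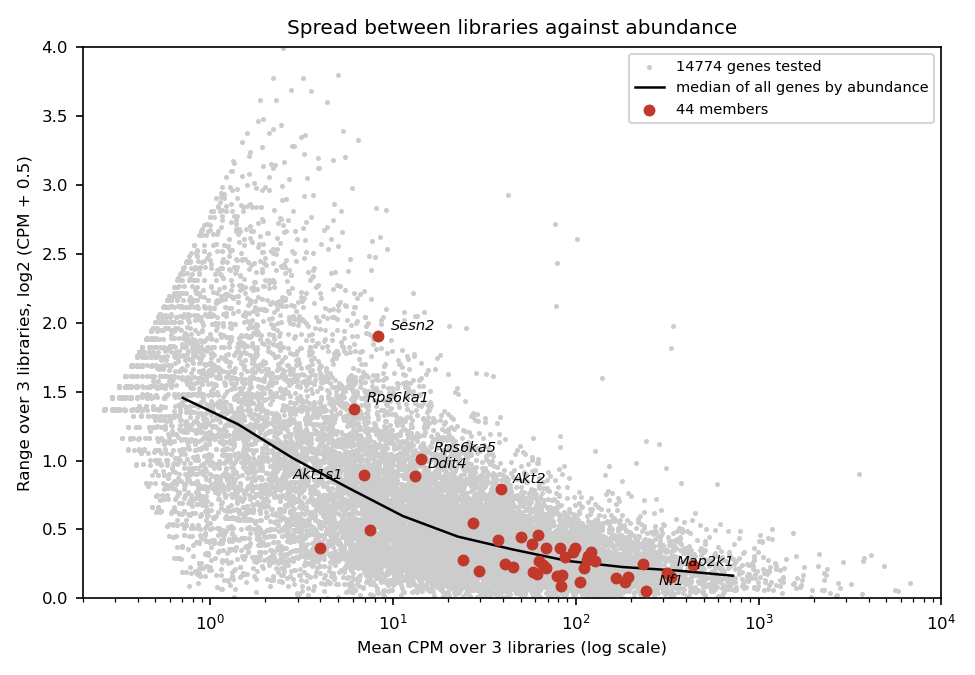
Range over the 3 libraries in log2 (CPM + 0.5) against mean CPM on a log axis, for the 14774 genes tested (grey; 3 lie above and 2 to the right of the axes) and the 44 signalling genes (red), with the median of all genes by abundance as a black line. Sesn2 and Rps6ka1 had the widest ranges of the 44 and Nf1 the narrowest.

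GC-rich genes of the set tended to be lower. Over the 44 genes, Spearman's rho between mean TPM and the GC content of the longest transcript was -0.38, given as a description because genes of 3 shared libraries are not replicates. Over the 11595 genes it was 0.0167. The 44 genes split at their median GC had a median of 32.6 TPM in the GC-rich part and 70.3 TPM in the GC-poor part, and the corresponding values over all genes were 26.5 and 27.1 TPM. The 10 lowest genes of the set had a median GC of 56.9%, and the 10 highest one of 45.8%. In 9 of the 12 contrasts with the same direction in every library, the lower gene was also the richer in GC, as for Map2k2 at 60.4% against 51.2% for Map2k1 and Pik3r2 at 61.4% against 44.9% for Pik3r1. The 3 that ran the other way were Akt1 minus Akt2, Sesn3 minus Sesn1 and Spred1 minus Spred2. The part of base composition in these levels was not tested.

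**Figure D4:**
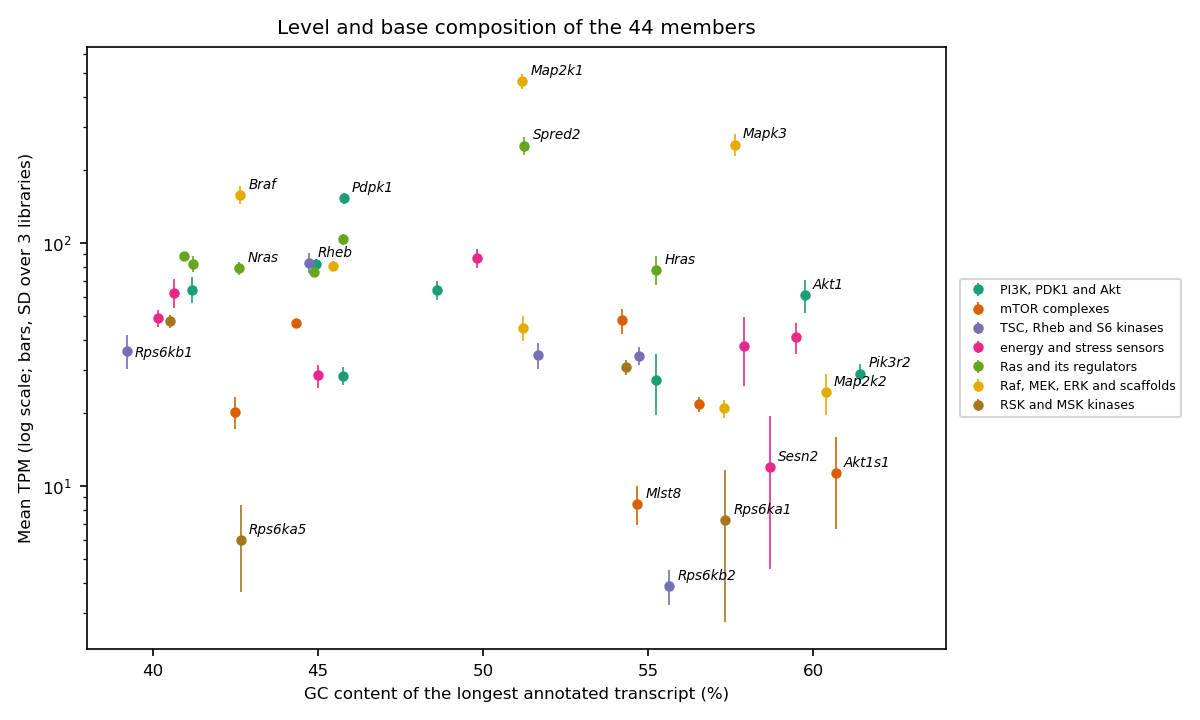
Mean TPM (log axis, bars the SD over 3 libraries) against GC content of the longest annotated transcript for the 44 genes, coloured by role. The 10 lowest genes had a median GC of 56.9% and the 10 highest one of 45.8%, and Mapk3, Akt1 and Hras were high in both GC and level.

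The rest of the pathways was covered by 9 lists of 123 other genes, glucocorticoid-responsive genes included. Of these, 119 reached 1 CPM in every library, against 67.0% of the symbols with a count in any library. Their median level was 36.0 TPM, against 26.8 TPM for all genes at 1 CPM or more with a gene model. Of 121 tested, edgeR called 0 as variable, against 0.244% of all genes. Limma and edgeR with the DESeq2 trended dispersion also called 0 of 121. With a common dispersion in edgeR, 1 of 121 was called, Pik3cg, with an adjusted p of 0.00249. At an unadjusted p under 0.05 edgeR with the trended dispersion gave 2, against 7.22% of all genes, Pik3cg at 1.11, 1.23 and 7.04 CPM and Depdc5, a subunit of the GATOR1 complex, at 68.9, 42.3 and 41.4 CPM. The genes under 1 CPM in a library were Prr5l, Prkag3, Eif4ebp1 and Tfeb.

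Upstream of PI3K and Ras, 11 receptors and adaptors had a median of 34.6 TPM. The phosphatase gene Ptpn11 (SHP2) stood at 109, 112 and 113 TPM and the adaptor gene Grb2 at 88.3, 106 and 104 TPM. The neuregulin receptor gene Erbb4 was lowest, at 9.91, 8.74 and 8.47 TPM. Among 10 other phosphoinositide kinases and phosphatases, with a median of 15.1 TPM, Inpp4a averaged 102 ± 7.54 TPM, the regulatory subunit gene Pik3r3 averaged 68.1 ± 9.76 TPM and Pik3cg, the p110 gamma gene, 1.86 ± 2.02 TPM.

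Other Ras proteins and regulators were high, with a median of 58.5 TPM over 21 genes. Rasgrp1, a diacylglycerol-activated Ras exchange factor, was at 1254, 1023 and 891 TPM, above all 44 signalling genes in every library. Rasgrf1, the paralog of Rasgrf2, was at 449, 430.0 and 467 TPM, and Rasgrf2 was lower in every library. Spry1, a Ras-ERK antagonist, averaged 5.23 ± 1.91 TPM. The 16 ERK phosphatases, scaffolds and effectors had a median of 26.9 TPM. Pea15a, which encodes a protein that holds ERK in the cytoplasm, averaged 340.0 ± 29.2 TPM, and the ERK-responsive transcription factor gene Etv5 averaged 268 ± 14.6 TPM. Mapk7, which encodes ERK5, averaged 6.94 ± 1.09 TPM.

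On the mTOR side, 22 genes of lysosomal nutrient sensing were all at 1 CPM or more, with a median of 36.1 TPM. Rraga, a Rag GTPase that recruits mTOR complex 1 to the lysosome, averaged 330 ± 33.9 TPM, and Lamtor5, a subunit of the Ragulator complex, averaged 284 ± 7.12 TPM. Of 6 other mTOR complex and TSC subunits, with a median of 27.8 TPM, Mapkap1 (SIN1, a subunit of mTOR complex 2) averaged 83.2 ± 10.3 TPM, Tti1 averaged 40.2 ± 11.9 TPM and Prr5l 1.40 ± 0.659 TPM. Of 11 other AMPK subunits and upstream kinases, with a median of 24.7 TPM, Cab39 (MO25 alpha, a partner of LKB1) averaged 128 ± 4.36 TPM and Camkk1 80.1 ± 4.55 TPM. Prkag3, the AMPK gamma 3 gene, had 3, 0 and 0 counts, where a count of 0 allows up to 3 counts, or 0.335 and 0.237 CPM in replicates 2 and 3.

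The 16 Akt and mTOR substrates had the highest median of these lists, 62.9 TPM. Gsk3b, a kinase that Akt inhibits, was at 429, 411 and 431 TPM. Rps6, the ribosomal protein that S6 kinases phosphorylate, was at 301, 313 and 331 TPM, although ribosomal protein genes have processed copies that can take reads. Tfeb, a lysosomal transcription factor that mTOR complex 1 phosphorylates, averaged 0.459 ± 0.386 TPM.

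The labelled cell type was read from marker genes. The 7 glutamatergic neuron markers summed to 5067, 5092 and 5402 CPM and all reached 1 CPM in every library, with Camk2a and Slc17a6 highest. Markers of other cell types were present too. GABAergic markers summed to 914, 904 and 970 CPM with 6 of 6 at 1 CPM or more, astrocyte markers to 1326, 1481 and 1520 CPM with 7 of 7, and oligodendrocyte markers to 427, 573 and 588 CPM with 6 of 7. Precursor markers summed to 56.1, 71.3 and 84.0 CPM with 4 of 4, microglial markers to 32.2, 34.1 and 41.0 CPM with 6 of 7 and C1qa at 0 in every library, and endothelial markers to 9.53, 7.81 and 10.2 CPM with 2 of 5. Slc1a2 and Aldoc averaged 985 and 348 CPM, and the other astrocyte markers 5.68 to 50.9 CPM. Gad2 and Sst averaged 626 and 178 CPM, and the other GABAergic markers 3.42 to 80.1 CPM. The astrocyte and GABAergic sums therefore rested mainly on the 2 highest markers of each list. The 4 glial sums were lowest in replicate 1 and highest in replicate 3. The lowest values of the 44 genes fell in replicates 1, 2 and 3 for 13, 17 and 14 genes. The share of each signalling gene's counts that came from cells other than the tagged neurons was not tested.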

How the data were processed

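The authors deposited whole-number counts of reads per gene symbol for each of the 3 libraries. The tools STAR 2.0.0e and HTSeq were used with the mm10 genome, per the submitters' processing notes. Annotation and strand setting: not given in the sources used here. Where genes overlap, counts can therefore be mixed. Summary lines without a gene held 27.9%, 27.2% and 28.3% of counts and were left out of totals and tests. CPM used the total on named genes. TPM used merged exon lengths of GENCODE M21 on mm10, matched by symbol for all 44 members and 94.1% of the 12321 genes that passed 1 CPM in each library, with a pseudocount of 0.5 TPM in contrasts. The limit that a count of 0 allows, 3 counts, was 0.238, 0.335 and 0.237 CPM by replicate and covers counting error only.

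Variation between libraries was tested over the 14774 genes with at least 10 counts in a library, using edgeR 4.0.16 with TMM factors and the trended dispersion, the deviance against a chi-square distribution with 2 degrees of freedom and Benjamini-Hochberg adjustment. For the edgeR test, DESeq2 1.42.0 gave alternative size factors and dispersions. Further alternatives used limma 3.58.1, other count filters, dispersions, lengths and pseudocounts, and each replicate left out. The procedure was tested on simulated data. Software was Python 3.11.15 with scipy 1.17.1, pandas 2.3.3, numpy 2.4.6 and matplotlib 3.10.9, and R 4.3.3. The genes, lists and contrasts were chosen with earlier results of these data known. The text names all 44 members, the 2 highest and the lowest gene of each further list by mean TPM, the 2 highest and any absent marker, except for an item that is not reported here; Depdc5, Eif4ebp1, Akt2-ps, Bricd5, Pkd1 and AC166110.4 were named after values were seen. The labels give each library as a separate sample of 3 mice.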

Additional observations from a re-analysis of the deposited data

How the results depend on the processing

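No paired analysis was possible because the series holds 1 group. The count of variable genes was 36, and it was 17 with at least 10 counts in every library, 1097 with a common dispersion, 12 with limma and 16 to 21 with a replicate left out; 0 of the 44 genes were called under each of these. Of the contrasts, Rictor minus Rptor was 0.22, Tsc1 minus Tsc2 0.30 and Sesn3 minus Sesn1 0.33 in CPM, which takes no account of length. Tsc1 minus Tsc2 was 0.000974 with the longest transcript, 2.88e-05 with a pseudocount of 1, and -0.076 to 0.109 with a replicate left out. Hras minus Nras was 0.12 with the longest transcript and -0.091 to 0.026 with a replicate left out. The other contrasts kept their direction under every alternative. In CPM, folds that moved by over 1.5 times were 1.30 for Akt1 over Akt2, 6.71 for Pik3r1 over Pik3r2, 13.9 for Rps6kb1 over Rps6kb2, 2.16 for Prkaa2 over Prkaa1, 4.13 for Braf over Araf, 11.4 for Map2k1 over Map2k2, 4.05 for Ksr2 over Ksr1, 10.3 for Rps6ka2 over Rps6ka1 and 13.2 for Rps6ka3 over Rps6ka1. The median level of the 44 genes was 42.7 TPM with the longest transcript, under which 27 of 44 levels moved by more than 1 SD. At 5 CPM in every library 41 of the 44 genes remained, at 10 CPM 37, and of the other pathway genes 106 at 5 CPM and 119 at 1 TPM, alternatives chosen after seeing the data for the last list. Genes under about 10 CPM, such as Rps6kb2, Sesn2 and Rps6ka1, rest on the fewest counts.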

Other observations

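Genes that glucocorticoids induce were read beside Sgk1, Ddit4 and the other stress-responsive members. All 10 reached 1 CPM in every library, against 67.0% of the symbols with a count in any library. Their median level was 49.1 TPM, against 26.8 TPM for all genes at 1 CPM or more with a gene model. Klf9, a transcription factor gene, was highest, at 178, 185 and 202 TPM. Errfi1, an inhibitor of ERBB receptors, was at 144, 123 and 119 TPM. Nfkbia, which encodes the inhibitor of NF-kappa-B, was lowest, at 4.18, 3.48 and 8.37 TPM. Summed over the list, the level was 535, 559 and 566 CPM, and edgeR called 0 of the 10 as variable between libraries, against 0.244% of all genes tested, with 0 of the 10 at an unadjusted p under 0.05, against 7.22% of all genes.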
